A study of Mus musculus with 19 samples.

Results

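The serpin genes of the mouse genome were examined for binding of YAP and TEAD in liver. A gene was a member if it was protein-coding in the GENCODE annotation of the NCBIM37 assembly and its symbol began with Serpin followed by a clade letter from a to i and a digit. This gave 60 genes of 22380 protein-coding genes: 23 in clade A, 26 in clade B and 11 in clades C to I (3 in clade E, 2 each in clades F and I, and 1 each in clades C, D, G and H). A gene was counted as having a peak if a peak overlapped its body or the 10 kb on either side, and as having a promoter peak if a peak overlapped any of its annotated starts, each extended by 2000 bp upstream and 1000 bp downstream. The other 22320 protein-coding genes, counted in the same way, gave the background.

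Serpins are proteins that share a fold with an exposed reactive loop, and most of them trap a serine protease by forming a covalent complex with it. Hepatocytes secrete many clade A members and the members that control coagulation, fibrinolysis and complement into the blood, whereas most clade B members act inside cells. YAP has no DNA-binding domain and reaches chromatin mainly through TEAD factors, and the Hippo pathway keeps YAP out of the nucleus of resting hepatocytes.

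The study profiled both proteins by chromatin immunoprecipitation and sequencing (ChIP-seq), to follow chromatin binding over the first days of YAP induction. All 19 samples were livers of mice on the C57BL/6 background, and their ages were not given in the sources used here. Control livers had the genotype ROSA26-rtTA-IRES-EGFP; WT, without the YAP transgene, and also received doxycycline food, for 7 days (WT). Induced livers had the genotype ROSA26-rtTA-IRES-EGFP; tetYAP and received doxycycline food for 3 days (3d) or 7 days (7d). The transgene encodes an activated YAP. Per the study's methods the mice were crossed with mice carrying a Cre under the albumin promoter, and the study describes the induction as one in hepatocytes. The chromatin was that of liver tissue as a whole. Each group held 3 samples per antibody, and TEAD at 7d held 4. The antibody against TEAD is described as an antibody against TEAD4 in the study's methods. They add that binding of this antibody to TEAD1 and TEAD3 has also been reported. TEAD tissue was fixed with formaldehyde alone, whereas material for YAP was first treated with a protein crosslinker.

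The authors merged the samples of each group before peaks were called, so 6 peak lists were analysed, 1 per group, with no spread between replicates and no replicate check of any difference. The merged libraries held 34260362 to 55032002 tags. For YAP the lists held 156 (WT), 110 (3d) and 1478 (7d) peaks, and for TEAD 5695, 36446 and 38984. Fragments were taken as 400 bp long for TEAD in WT livers and as 207 bp and 206 bp at 3d and 7d, and the part of this setting in the differences between WT and induced lists was not tested. As a check of the tissue, TEAD promoter peaks at 7d lay at 5 of 5 hepatocyte marker genes, 1 of 3 biliary, 1 of 3 endothelial, 1 of 3 stellate and 0 of 4 leukocyte marker genes, against 37.6% of the protein-coding genes other than serpins. Within 10 kb, 2 of the 4 leukocyte genes had a TEAD peak at 7d, against 59.7%. A peak list does not measure expression. Fewer cells of a type and less binding per cell cannot be told apart in bulk tissue.

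The sequences under the serpin peaks that stood highest in the TEAD list at 7d, and under 4 strong promoter peaks, are shown first, since the results below refer to them. Each is the plus strand of NCBIM37, 200 bp around the summit, except where an annotated untranslated region was left out. Capitals mark the letters GGAATG or the reverse complement CATTCC, the core of the TEAD recognition sequence.
Serpinb6b, 7181 bp upstream of the start, chr13:33049902-33050101: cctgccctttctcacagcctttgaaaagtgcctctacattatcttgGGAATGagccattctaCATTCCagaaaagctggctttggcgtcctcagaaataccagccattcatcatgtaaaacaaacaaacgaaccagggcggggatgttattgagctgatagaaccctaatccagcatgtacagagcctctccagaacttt
Serpina12, intron, chr12:105280416-105280615: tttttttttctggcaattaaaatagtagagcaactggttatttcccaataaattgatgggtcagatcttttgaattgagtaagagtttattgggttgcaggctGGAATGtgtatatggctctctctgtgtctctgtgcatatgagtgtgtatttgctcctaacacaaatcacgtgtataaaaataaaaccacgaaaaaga
Serping1, beyond the 3′ end, also the only YAP site, chr2:84598991-84599190: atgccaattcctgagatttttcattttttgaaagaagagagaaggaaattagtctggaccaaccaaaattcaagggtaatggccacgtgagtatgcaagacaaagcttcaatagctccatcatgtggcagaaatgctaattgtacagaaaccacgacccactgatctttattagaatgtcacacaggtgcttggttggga
Serpina7 promoter, chrX:135619776-135619963: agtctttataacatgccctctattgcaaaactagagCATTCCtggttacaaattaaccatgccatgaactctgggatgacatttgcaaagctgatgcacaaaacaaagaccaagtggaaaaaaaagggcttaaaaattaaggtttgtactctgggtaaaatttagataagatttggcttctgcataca
Serping1 promoter, chr2:84614972-84615161: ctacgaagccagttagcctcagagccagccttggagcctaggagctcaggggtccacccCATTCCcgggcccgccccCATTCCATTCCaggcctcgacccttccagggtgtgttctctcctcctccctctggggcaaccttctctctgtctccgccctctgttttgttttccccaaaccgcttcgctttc
Serpini1 promoter, chr3:75360779-75360925: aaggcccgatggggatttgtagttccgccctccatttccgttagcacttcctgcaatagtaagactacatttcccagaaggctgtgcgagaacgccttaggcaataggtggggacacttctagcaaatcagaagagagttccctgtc
Serpina1b promoter, chr12:104976534-104976733: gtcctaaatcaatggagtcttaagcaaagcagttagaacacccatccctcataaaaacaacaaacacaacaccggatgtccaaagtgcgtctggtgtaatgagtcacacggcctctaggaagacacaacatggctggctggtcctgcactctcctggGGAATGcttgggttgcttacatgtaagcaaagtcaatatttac
The Serping1 promoter sequence held 3 matches, the most of those shown, and the Serpinb6b site held a GGAATG and a CATTCC. No match lay in the shown stretches of the distal Serping1 site or the Serpini1 promoter.

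YAP peaks were rare at the serpin genes, as they were at the other genes. None of the 60 had a YAP peak within 10 kb in WT livers (0.116% of the other genes) or at 3d (0.161%), and 0 of 60 allows a share of up to 5%. At 7d, 1 gene had one, which is 1.67% of the serpins (95% Wilson interval 0.295% to 8.86%) against 4.8% of the other genes. That interval held the share of the other genes. No serpin promoter held a YAP peak in WT livers (0.0358% of the other genes), at 3d (0.0717%) or at 7d (1.04%). Intervals and limits of this kind cover counting error over genes only, and genes of a cluster share peaks.

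TEAD lay near many serpins after induction, at shares no higher than those of the other genes. In WT livers 7 of the 60 had a TEAD peak within 10 kb (11.7%, 5.77% to 22.2%) against 20.2% of the other genes. At 3d there were 30 (50%, 37.7% to 62.3%) against 58.8%, and at 7d 33 (55%, 42.5% to 66.9%) against 59.7%. The serpin intervals at 3d and 7d contained the share of the other genes, taken without regard to length. In WT livers the share of the other genes lay within the interval as well. With only the 5695 strongest peaks kept in the induced lists, as many as in WT livers, 12 serpins had a TEAD peak within 10 kb at 3d and at 7d (20%), against 19.7% and 18.1% of the other genes.

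Promoters showed the change between WT and induced livers most plainly. No serpin promoter held a TEAD peak in WT livers, where 8.75% of the other genes had one and 0 of 60 allows up to 5%. At 3d 22 serpin promoters held one (36.7%, 25.6% to 49.3%) against 38.9% of the other genes, and at 7d 21 (35.0%, 24.2% to 47.6%) against 37.6%. Serpin bodies were shorter than those of the other genes, with a median of 11.1 kb against 15.4 kb. At the rate of the other genes of the same window length (in 10 classes), 12.3 serpins would have held a TEAD peak in WT livers, and 38.4 at either induced time, while 5.85, 26.6 and 25.5 would have held a promoter peak. With the same limit, 3 serpin promoters held a peak at 3d and 3 at 7d (5%), against 7.73% and 5.95% of the other genes.

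The same genes were bound at both induced time points for the most part. A TEAD peak was present within 10 kb in all 3 TEAD lists for 7 serpins, among them Serpina6, Serpina9, Serpina11, Serpina12, Serpinf1 and Serping1, and in both induced lists only for 22 (36.7%, against 34.9% of the other genes). Serpinb1a had one at 3d alone, and Serpina3b, Serpina3c, Serpinb1b and Serpinb1c had one at 7d alone, where the other genes gave 3.86% for 3d alone and 4.68% for 7d alone. The peak of Serpina3b was also that of Serpina3c. The remaining 26 genes (43.3%, against 36.4% of the other genes) had no TEAD peak in any list. Promoter peaks were shared by 3d and 7d alone at 19 genes (31.7%, against 25.1% of the other genes). They were found at 3d alone at Serpinb1a, Serpinb9 and Serpinc1 (5%, against 5.15%), and at 7d alone at Serpinb6b and Serpinb8 (3.33%, against 3.84%).

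The serpins with TEAD peaks were unevenly spread over the clades. In clade A, most of whose members are secreted by the liver, 4 of 23 genes had a TEAD peak in WT livers (17.4%, 6.98% to 37.1%). The number was 17 at 3d (73.9%, 53.5% to 87.5%), and 7d gave 19 (82.6%, 62.9% to 93.0%). Serpina3b and Serpina3c, the clade A genes counted at 7d alone, shared a single peak. In clade B, the intracellular serpins, the numbers were 0 of 26, 5 (19.2%, 8.51% to 37.9%) and 6 (23.1%, 11% to 42.1%). The 11 genes of clades C to I gave 3, 8 and 8. Promoter peaks were found at 12 clade A genes at 3d and at 12 at 7d, at 3 and 3 clade B genes, and at 7 and 6 genes of clades C to I. The clades were compared without a test, because neighbouring genes of a cluster have overlapping windows. Within 10 kb, the other protein-coding genes gave 20.2%, 58.8% and 59.7% in the WT, 3d and 7d lists. At promoters they gave 8.75%, 38.9% and 37.6%. The plot of shares by clade sets the clades beside these genes.

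**Figure D1:**
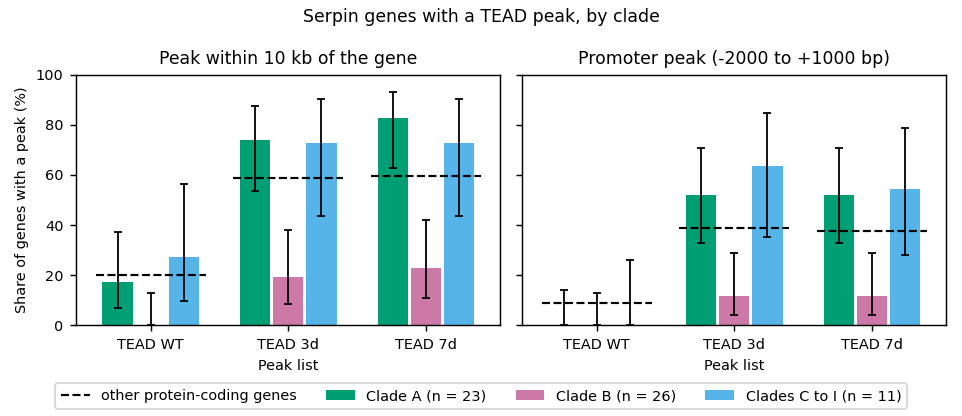
Share of serpin genes (%) with a TEAD peak within 10 kb (left) or at a promoter (right) in each TEAD list, for clade A, clade B and clades C to I. Bars are the shares, error bars 95% Wilson intervals and dashed lines the other protein-coding genes. Clade B stayed below the dashed line in all 3 lists, at 23.1% against 59.7% at 7d.

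Position separated clade B further. Of its 26 genes, 11 form a cluster on chromosome 1 and 15 lie on chromosome 13. On chromosome 1 only Serpinb8 had a TEAD peak at 3d and at 7d. On chromosome 13 there were 4 genes at 3d and 5 at 7d. Among the genes other than serpins the shares were 58.8% at 3d and 59.7% at 7d. Of the 7 Serpinb9 genes, whose best known member inhibits granzyme B of cytotoxic lymphocytes, 1 had a TEAD peak at 3d and 1 at 7d, and this was Serpinb9 itself both times. Reads cannot be placed uniquely over all of the windows of Serpinb9e, Serpinb9f and Serpinb9g (values below). The part of this in their lack of peaks was not tested. Of the 5 Serpinb6 genes, 2 had peaks at both times, Serpinb6a and Serpinb6b.

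Each peak was also counted a single time, because a peak can lie in the windows of several genes. The serpin windows merged into 46 regions of 2.16 Mb, which held 7 TEAD peaks without induction (WT), 79 at 3d and 82 at 7d. This is 3.24, 36.6 and 37.9 peaks per Mb, against 3.49, 22.7 and 23.7 per Mb in the windows of all other protein-coding genes. The density in WT livers was thus near that of the other genes, and after induction it was higher. The 22 clade A genes of chromosome 12 accounted for 3, 41 and 41 of these peaks, or 5.25, 71.8 and 71.8 per Mb. Clade B had 0, 13 and 14, or 12.2 per Mb at 3d and 13.2 per Mb at 7d. The clade B cluster of chromosome 1 had 1 and 2.

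**Figure D2:**
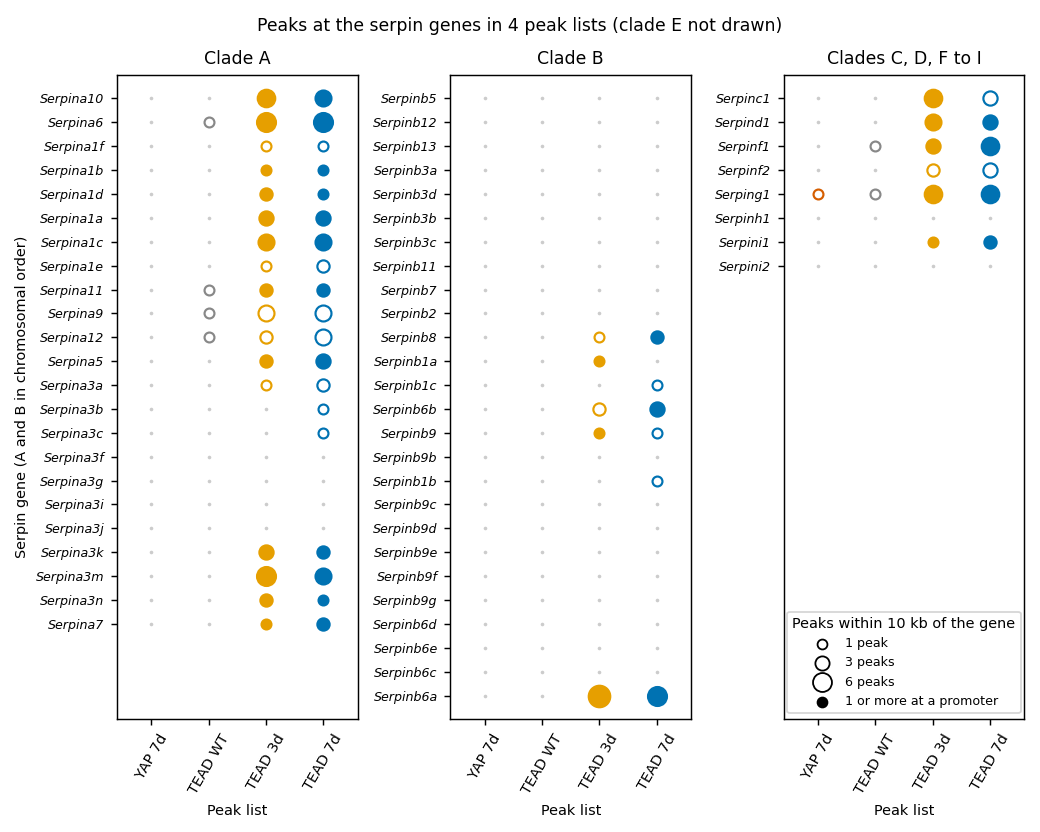
TEAD and YAP peaks within 10 kb of the serpin genes of clades A, B, C, D and F to I (clade E is not drawn), 1 row per gene, in the YAP 7d list and the 3 TEAD lists. Circle size gives the number of peaks, a filled circle marks at least 1 promoter peak and a grey dot no peak. Most clade B rows hold only grey dots, and no circle in the TEAD WT column is filled.

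The Serpina1 genes encode alpha-1 antitrypsin, the main blood inhibitor of neutrophil elastase, and mice carry several copies of it. No Serpina1 gene had a TEAD peak in WT livers, and all 6 (Serpina1a to Serpina1f) had one within 10 kb at 3d and at 7d. Of the genes other than serpins, 58.8% and 59.7% had one. Promoter peaks lay at 4 of the 6 at both times, against 38.9% and 37.6% of the genes other than serpins. Serpina1b had the strongest. Its promoter peak had 8.86-fold enrichment over local background at 3d (rank 7340 by −log10 p) and 11.78-fold at 7d (rank 9909). Serpina1a had 3 promoter peaks at each time, and the strongest was not the same site. The strongest at 3d, near a start, had 8.04-fold enrichment (rank 8928) and 5.89-fold at 7d (rank 28062). The strongest at 7d had 6.13-fold (rank 26566) and 4.92-fold at 3d (rank 23402). Serpina1d had 5.42-fold (rank 19383) and 6.36-fold (rank 25123), and Serpina1c 4.69-fold (rank 21924) and 6.13-fold (rank 26566). Serpina1e had no promoter peak in any list. Its nearest peaks lay 7973 bp upstream of its start at 3d and 4559 bp and 7949 bp upstream at 7d. Serpina1f, a divergent copy, had no promoter peak either.

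The copies allow the sequence at the Serpina1b peak to be followed in its paralogs, a comparison chosen after the values were seen. The 200 bp of the Serpina1b peak at 7d aligned to a stretch 264 to 297 bp upstream of a start of each other copy, with 95% identity in Serpina1d, 93.5% in Serpina1e, 92.4% in Serpina1a and 90.5% in Serpina1c. The first 70 bases of each stretch are given on the strand of the gene, the minus strand of chromosome 12, with GGAATG or CATTCC in capitals.
Serpina1b, chr12:104976664-104976733: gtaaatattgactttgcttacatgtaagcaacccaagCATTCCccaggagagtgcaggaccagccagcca
Serpina1d, chr12:105012097-105012166: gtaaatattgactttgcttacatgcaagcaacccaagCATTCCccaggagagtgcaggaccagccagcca
Serpina1a, chr12:105102087-105102156: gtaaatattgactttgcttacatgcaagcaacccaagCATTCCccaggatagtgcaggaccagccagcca
Serpina1c, chr12:105143424-105143493: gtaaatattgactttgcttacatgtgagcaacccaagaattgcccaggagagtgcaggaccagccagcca
Serpina1e, chr12:105195422-105195491: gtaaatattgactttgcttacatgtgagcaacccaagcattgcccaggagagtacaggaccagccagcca
Serpina1b, Serpina1d and Serpina1a held CATTCC at positions 38 to 43, counted from 1 at the 5′ end of the stretch. Relative to Serpina1b, Serpina1e carried the substitution C42G and Serpina1c the substitutions C38A and C42G, and neither matched. TEAD peaks overlapped the aligned stretch in Serpina1b, Serpina1d, Serpina1a and Serpina1c at 3d and 7d, and in Serpina1e in no list. By overlap alone, letters and peaks went together in 4 of the 5 copies, and Serpina1c had a peak without them. In Serpina1a and Serpina1c, however, the 7d summits (chr12:105102314 and chr12:105143708) lay outside the aligned stretch. Neither GGAATG nor CATTCC lay within 100 bp of these summits. With 5 copies this is a description. Reads of 51 bp cannot be placed uniquely over all of these promoters: of the 51-base words in the promoters, 50.9% occurred a single time in the genome for Serpina1d, 56.6% for Serpina1c, 61.4% for Serpina1b, 63.4% for Serpina1a and 72.8% for Serpina1e, against a median of 98.4% for the other protein-coding genes. The part of repeated sequence in the peaks of these copies was not tested.

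Over all 60 serpins the median share of unique words in the promoter was 97.1%. It was under 80% for 10 genes (16.7%, against 9.48% of the other protein-coding genes). Of these 10, 5 had a TEAD promoter peak at 7d and 6 a TEAD peak within 10 kb, against 16 and 27 of the other 50 serpins. Serpinb9e, Serpinb9f and Serpinb9g were among the 10 and had no peak in any list. Unique words made up 74.2%, 52.4% and 77.1% of their promoters, and 63.8%, 35.2% and 45.5% of their windows. The peaks themselves lay mostly in unique sequence. The median over the 82 peaks at 7d was 100%, and 1 peak, in an intron of Serpina1c, was under 50%. The promoter peaks of the Serpina1 copies at 7d were less unique. The shares were 50.9% for Serpina1d, 54.3%, 54.4% and 78.6% for Serpina1a, 72.8% for Serpina1c and 79.1% for Serpina1b.

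Elsewhere in clade A, the strongest promoter peaks were at Serpina7 and Serpina10. Serpina7 (chrX:135613796-135619775, minus strand), which encodes thyroxine-binding globulin and lies alone on chromosome X, had a promoter peak with 11.33-fold enrichment at 3d (rank 4432) and 18.85-fold at 7d (rank 4323). The same peak overlapped the promoter of the neighbouring gene 4930513O06Rik. Serpina10 (chr12:104854885-104869654, minus strand), the inhibitor that acts on factor X together with protein Z, had 11.98-fold (rank 3949) and 17.91-fold (rank 4782). Both genes kept a similar place in the 2 lists, from the top 10.8% to the top 12.3%.

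Serpina6 encodes corticosteroid-binding globulin, the carrier of cortisol and corticosterone in blood. The gene lies on the minus strand at chr12:104884840-104895422. It had 6 TEAD peaks within 10 kb at 3d and 6 at 7d, and 1 in WT livers, 2914 bp upstream of its start, with 4.91-fold enrichment. Of those peaks 4 overlapped a promoter interval at 3d and 3 at 7d. Its strongest promoter peak had 6.68-fold enrichment at 3d (rank 13085) and 6.76-fold at 7d (rank 23414). The order of its distal sites changed between the times. The site about 3 kb upstream was the strongest at 3d (12.55-fold, rank 2872) and ranked 11983 at 7d (9.79-fold), whereas a site 8129 bp upstream ranked 6119 at 3d (9.69-fold) and 2899 at 7d (22.86-fold).

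Serpina12 (chr12:105266979-105282653, minus strand) encodes vaspin, an adipokine, and had no promoter peak. A site in its intron, 2138 bp downstream of its start, was bound in all 3 TEAD lists, with 5.72-fold enrichment in WT livers (rank 2058), 18.85-fold at 3d (rank 1309) and 30.40-fold at 7d (rank 1381). A site in an annotated untranslated region of Serpina9, 6822 bp upstream of the Serpina11 start, was likewise bound in all lists, with 7.71-fold (rank 830), 12.64-fold (rank 3534) and 23.56-fold enrichment (rank 2718). Serpina11 had a weak promoter peak, with 4.76-fold (rank 25082) and 6.60-fold (rank 23816). Serpina5 encodes protein C inhibitor. Its promoter peak had 8.37-fold enrichment at 3d (rank 8230) and 7.15-fold at 7d (rank 20130).

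The Serpina3 genes, relatives of the human acute-phase protein alpha-1 antichymotrypsin, were divided along the cluster. Of 10 genes, 4 had a TEAD peak at 3d and 6 at 7d, against 58.8% and 59.7% of the genes other than serpins. Serpina3b and Serpina3c, counted at 7d alone, shared a single peak. At each time 3 of the 10 had a promoter peak, against 38.9% and 37.6%. These were the 3 genes at the right end, Serpina3k, Serpina3m and Serpina3n. Serpina3k had 6.89-fold enrichment at its promoter at 3d (rank 12103) and 9.66-fold at 7d (rank 13508). Serpina3m had 6.24-fold (rank 14735) and 8.72-fold (rank 15789), and Serpina3n 5.25-fold (rank 20644) and 6.36-fold (rank 25123). Serpina3f, Serpina3g, Serpina3i and Serpina3j, in the middle, had no peak in any list. The map of the cluster shows this gap as a stretch without serpin window peaks between Serpina3c and Serpina3k.

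**Figure D3:**
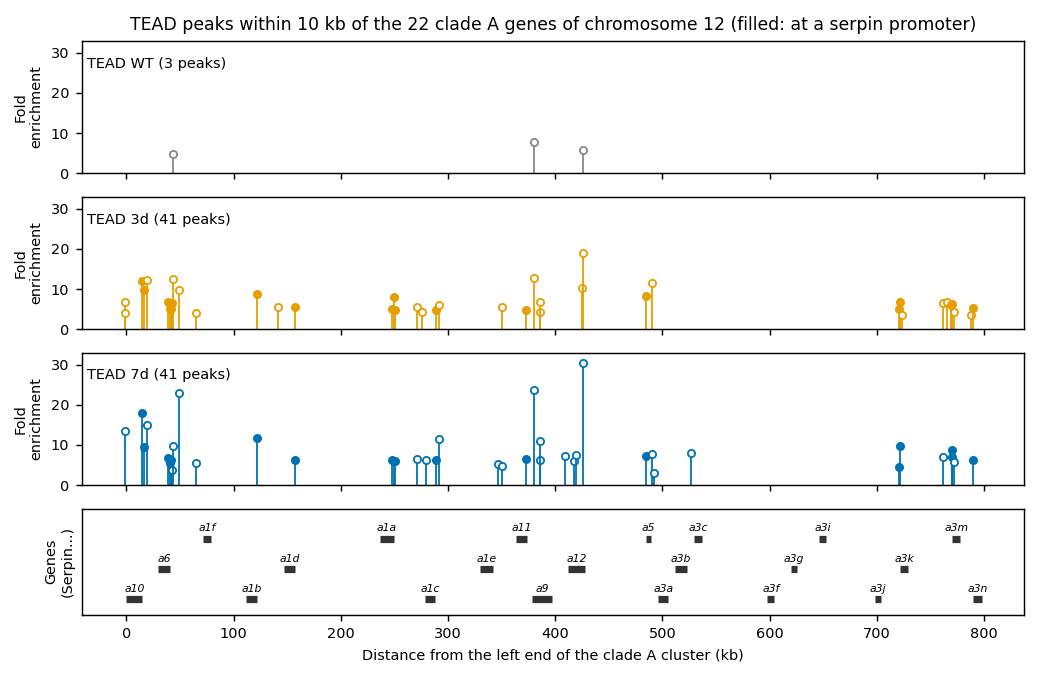
TEAD peaks within 10 kb of the 22 clade A genes of chromosome 12, by distance in kb from the left end of the cluster and by fold enrichment, for the TEAD WT, 3d and 7d lists. Filled circles overlap a serpin promoter, and gene bodies are drawn below in 3 tiers for legibility. The WT list holds 3 peaks and the induced lists 41 each, with none in the windows of the genes between Serpina3c and Serpina3k.

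Among further serpins that control coagulation and fibrinolysis, Serpinc1 and Serpinf2 had TEAD peaks but no promoter peak at 7d, and the strongest peak of Serpind1 at 7d lay away from its start. Serpinc1 (chr1:162908737-162933141, plus strand) encodes antithrombin, the inhibitor of thrombin and factor Xa. Its promoter peak appeared at 3d alone (4.6-fold, rank 26753), but a site in its intron 2139 bp downstream of a start had 10.41-fold enrichment at 3d (rank 5158) and 17.20-fold at 7d (rank 5153). Serpind1 encodes heparin cofactor II, another thrombin inhibitor, and lies inside the body of Pi4ka. Its strongest promoter peak at 3d (7.39-fold, rank 10577) lay 695 bp downstream of a start and overlapped no peak at 7d. The promoter peak at 7d (4.75-fold, rank 34501) was another site, with 3.95-fold enrichment at 3d (rank 32691). A site 4873 bp downstream of the start had 5.79-fold (rank 14489) and 11.69-fold (rank 7954).

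Serpinf2 encodes alpha-2 antiplasmin and had no promoter peak. Its nearest site, 4370 bp upstream and inside Wdr81, had 5.25-fold enrichment at 3d (rank 20644) and 8.25-fold at 7d (rank 17165). Its neighbour Serpinf1, which encodes pigment epithelium-derived factor, had weak promoter peaks. The strongest had 3.56-fold enrichment at 3d (rank 34122) and 5.48-fold at 7d (rank 30993), at different sites. The 3d site had 5.02-fold enrichment at 7d (rank 34395). The single Serpinf1 window peak of WT livers lay in the body of Smyd4, with 4.39-fold enrichment.

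Serping1 (chr2:84605544-84615601, minus strand), the C1 inhibitor that restrains complement and kallikrein, was the only serpin with YAP within 10 kb. The YAP peak at 7d (chr2:84598965-84599221) had 5.08-fold enrichment and ranked 1035 of 1478. It lay 16164 bp downstream of the start, past the 3′ end of the gene, with Serping1 as the nearest start. TEAD was found there in all 3 lists, with 8.90-fold enrichment in WT livers (rank 436), 25.54-fold at 3d (rank 503) and 25.80-fold at 7d (rank 2053). In the WT and 3d lists it was the strongest TEAD peak of any serpin window. The promoter of Serping1 had no TEAD peak in WT livers and 12.97-fold enrichment at 3d (rank 3337) and 16.49-fold at 7d (rank 5585).

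Among the 82 TEAD peaks of the serpin windows at 7d, the distal Serping1 site was the only one that a YAP peak at 7d overlapped (1.22%, 0.216% to 6.59%, against 3.58% of all other TEAD peaks). With windows widened to 50 kb, 5 YAP peaks at 7d lay near 5 serpins (8.33%, against 10.8% of the other genes). The strongest was next to Tlcd2, 23.6 kb upstream of Serpinf2 (9.58-fold, rank 58). The others lay near Serping1 (6.33-fold, 31.5 kb from its start, and the site above), near Serpini1 (6.11-fold, 26.2 kb upstream) and near Serpinb1c (4.8-fold, 14.96 kb upstream). Of these, the Serpinb1c site was the only one without a TEAD peak in WT livers. It had 16.29-fold TEAD enrichment within the 3d list and 37.94-fold within the 7d list, and its places in these lists were not compared.

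Serpini1, which encodes neuroserpin, an inhibitor of tissue plasminogen activator in the nervous system, had a promoter peak with 8.54-fold enrichment at 3d (rank 7949) and 13.43-fold at 7d (rank 7967). Its start lies beside that of Pdcd10, and the peak, 644 bp upstream, had the Pdcd10 start as its nearest. Serpine3 had a promoter peak with 5.25-fold enrichment at 3d (rank 20644) and 6.13-fold at 7d (rank 26566). Serpinh1, which encodes the collagen chaperone HSP47, Serpine2 and Serpini2 had no peak in any list.

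In clade B, promoter peaks at 5 genes were weak, except at Serpinb6a. Serpinb6a encodes an intracellular inhibitor of granule proteases such as cathepsin G. Its strongest promoter peak had 5.09-fold enrichment at 3d (rank 21999) and 9.90-fold at 7d (rank 13027). These are different sites: the first lies at the start it shares with Ripk1, and the second at an internal start. A site in an intron, 2075 bp downstream of a start, was stronger than either, with 10.63-fold enrichment at 3d (rank 3933) and 15.01-fold at 7d (rank 5272). At 3d 3 further peaks of its window lay at the promoter of Nqo2, which overlaps its annotated body. Serpinb1a, an inhibitor of neutrophil elastase, had 4.92-fold enrichment (rank 23402) and Serpinb9 3.77-fold (rank 32913), both at 3d alone. At 7d alone, Serpinb6b had 5.61-fold (rank 30759) and Serpinb8 5.42-fold (rank 31518).

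The greatest change of place between 3d and 7d among the serpin peaks was at a distal site of Serpinb6b (chr13:33057182-33070936, plus strand), 7181 bp upstream of its start (chr13:33049754-33050254 at 7d). It was absent in WT livers, had 4.43-fold enrichment at 3d (rank 28460, top 78.1% of the list) and 29.89-fold at 7d (rank 1371, top 3.52%). At 7d it had the highest −log10 p of the serpin windows. No YAP peak lay there. This is the first sequence shown above, with GGAATG and CATTCC close together on opposite strands. Among the 27135 pairs of overlapping TEAD peaks of the 2 lists, the gain of 74.6 points of list place put it at percentile 99.9.

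The other shared sites were described in the same way, a summary chosen after the values were seen. Of 62 pairs in the serpin windows, 27 stood higher in the 7d list and 35 lower, with a median change of −2.95 points against −1.45 over all pairs. At serpin promoters 7 of 29 stood higher at 7d (median −5.17 points, against −3.62 over all promoter pairs), and elsewhere in the windows 20 of 33 did (median 2.72 points). Over all pairs away from promoters, 8958 of 18880 stood higher at 7d (median −0.58 points). The largest gain after Serpinb6b was at the internal promoter of Serpinb6a (65.0 points). The largest losses were at a site 2212 bp upstream of Serpina6 (−59.5 points), at the annotated start of Serpina1a (−47.5 points) and at a site 7949 bp upstream of Serpina1e (−43.2 points).

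**Figure D4:**
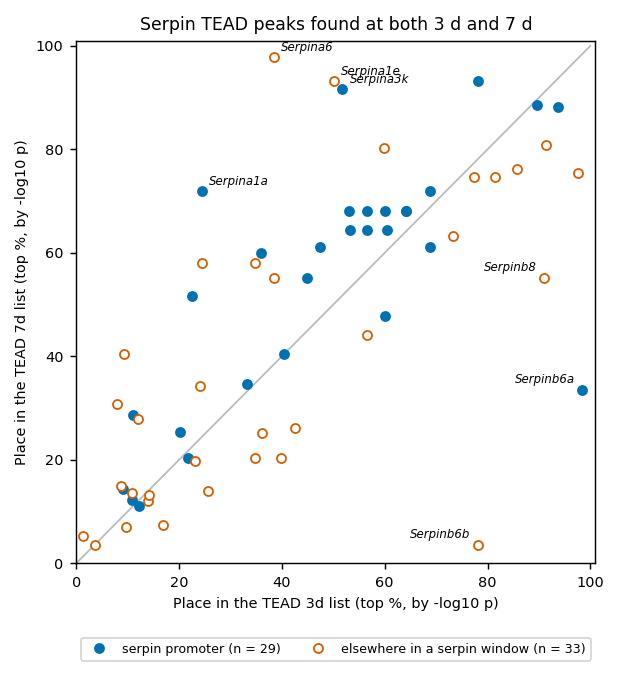
Place of each of 62 serpin TEAD peaks in the TEAD 3d list (horizontal) and the TEAD 7d list (vertical), as top percent by −log10 p, so that low values are strong peaks. Filled points are serpin promoters, open points lie elsewhere and the line marks equal place. Serpinb6b lies far below the line, at 78.1% and 3.52%, and Serpina1a far above it.

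The TEAD peaks of the serpin windows were also followed across the lists. All 7 peaks of WT livers overlapped a peak at 3d and at 7d. At 3d 7 of 79 peaks had a counterpart in WT livers (8.86%, 4.36% to 17.2%, against 15.6% of all other TEAD peaks) and 64 had one in the 7d list (81.0%, 71.0% to 88.1%, against 75.8%). At 7d 7 of 82 had a counterpart in WT livers (8.54%, 4.20% to 16.6%, against 14.2%) and 64 had one in the 3d list (78.0%, 67.9% to 85.6%, against 71.2%). Each of these 4 intervals held the share of the other peaks.

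Serpin TEAD peaks stood near the middle of the 3d list in strength and somewhat lower in the 7d list. Their median place was the top 38.3% in WT livers (7 peaks), 50.1% at 3d and 59.1% at 7d. In the upper 50% of their list were 6 of 7, 38 of 79 and 32 of 82. Their median enrichment in the WT, 3d and 7d lists was 5.52-fold, 5.42-fold and 6.60-fold, against 5.05-fold, 5.44-fold and 7.30-fold for all other peaks. Of the serpin peaks, 1 of 7, 7 of 79 and 5 of 82 were among the strongest 10% of their list. A summit within 1000 bp of a serpin start was found for 27 peaks at 3d and 26 at 7d, against 0 in WT livers, and the median distance was 2594 bp at 3d and 2955 bp at 7d. In the WT, 3d and 7d lists, 0%, 46.8% and 40.2% of the serpin peaks overlapped the promoter of any protein-coding gene. Among all other peaks of the lists, 31.6%, 29.9% and 26.9% did. Serpin windows lie near genes by definition, whereas the other peaks lie anywhere. At 7d 50 of 82 summits were intergenic, 19 lay in introns of serpins, 4 in their untranslated regions, 2 in other exons and 7 in other genes.

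The letters GGAATG, read on both strands within 100 bp of the summit, were found in 6 of 7 serpin peaks of WT livers (85.7%, 48.7% to 97.4%). After induction 27 of 79 serpin peaks held them at 3d (34.2%, 24.7% to 45.2%), and in the 7d list 36 of 82 did (43.9%, 33.7% to 54.7%). Among all other peaks of the lists they were found in 48.6%, 30.4% and 35.2%, and at 2000 bp from the summits of all peaks in 10.7%, 10.4% and 10.6%. At 7d 14 of 33 promoter peaks and 22 of 49 other serpin peaks held them, and 12 of the strongest 20. The AP-1 letters TGANTCA were found in 6 of the 82 peaks at 7d (7.32%, against 8.71%), the FOXA letters TGTTTAC in 4 (4.88%, against 5.76%) and the HNF4 letters CAAAGTCCA in 1 (1.22%, against 1.69%). A match is a description of the sequence and not a site. In the 300 bases upstream of the outermost start, GGAATG was present in 12 of the 60 serpins (20%) and in 13.8% of the other genes.

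**Figure D5:**
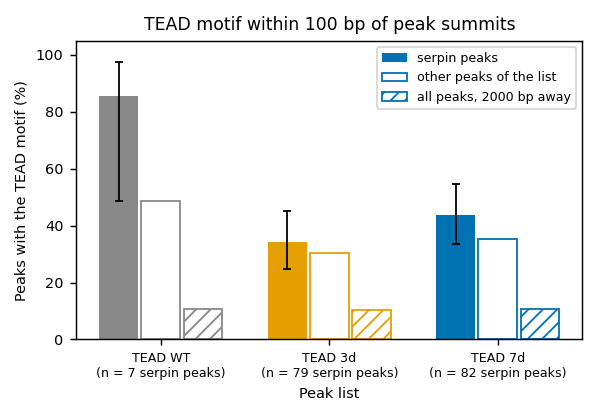
Share of peaks (%) with GGAATG on either strand within 100 bp of the summit in each TEAD list, for serpin peaks (filled, with 95% Wilson intervals), all other peaks of the list (open) and windows 2000 bp away from all peaks (hatched). Serpin shares are 85.7% of 7 peaks, 34.2% of 79 and 43.9% of 82.

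The proteases that serpins inhibit, with their cofactors and clearance receptors, were counted as a list of partners, of which 25 of 26 symbols were found in the annotation. A TEAD peak lay within 10 kb of 5 of the 25 in the WT list, 19 in the 3d list and 22 in the 7d list, and at the promoters of 2, 14 and 15. The protein-coding genes other than serpins gave 20.2%, 58.8% and 59.7% within 10 kb, and 8.75%, 38.9% and 37.6% at promoters. Both promoters of WT livers were those of C1ra and C1rb, complement proteases that Serping1 inhibits. They shared a peak, with 5.14-fold enrichment in WT livers (rank 2831), 11.16-fold at 3d (rank 4571) and 18.38-fold at 7d (rank 4546). The promoter of Vtn, which encodes vitronectin, an adhesive plasma protein that binds serpin complexes, had 13.46-fold enrichment at 3d (rank 3065) and 22.20-fold at 7d (rank 3038). F2, which encodes prothrombin, the target of Serpinc1 and Serpind1, had 5.25-fold at 3d (rank 20644) and 6.83-fold at 7d (rank 22662). YAP peaks at 7d lay within 10 kb of 3 partners (4.8% of the genes other than serpins had one), Klkb1 (plasma kallikrein), Lrp1 (a receptor that clears serpin complexes) and Masp1, a complement protease. Elane and Prtn3, proteases of neutrophils, had a TEAD peak at 7d alone, and Ctsg and Gzmb had none in any list.

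Outside the protein-coding set, 7 further serpin loci are annotated as pseudogenes or transcripts without a coding sequence. Serpinb1-ps1 had 1 TEAD peak within 10 kb at 3d, and the others had no peak in any list.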

How the data were processed

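YAP and TEAD ChIP-seq of 19 mouse liver samples was analysed from 6 deposited peak lists. Per the file headers and the study's methods, the authors masked low-quality bases, aligned 51 bp reads to mm9 with BWA 0.6.2, merged the samples of a group, removed duplicates with SAMtools, and called peaks with MACS2 2.0.9 at p 1e-05 against a single control library of 167176362 tags used for all lists. Low depth in a merged library limits the weakest peaks first, and merging leaves no error between animals. The deposited values are coordinates, the pileup signal at the summit (extended fragments), −log10 p and −log10 q, and fold enrichment, the ratio of pileup to local background. Fold enrichments were compared within a list, and lists were compared by rank of −log10 p.

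Serpins, promoters and windows were taken from the GENCODE annotation of NCBIM37, and sequences from that assembly. Overlap needed 1 bp. Shares carry 95% Wilson intervals, and the limit for a count of 0 is 3 counts of the total. No significance test was run, since each group is 1 list. Motifs were searched on both strands within 100 bp of summits. Uniqueness is the share of 51-base words found a single time in the genome on either strand. Place in a list is rank as percent of the list, and 3d and 7d peaks that were each the strongest overlapping peak of the other were paired. The members and lists were chosen with earlier results of these data known. Genes described singly were those with a YAP peak within 10 kb or a TEAD promoter peak, with Serpina1a to Serpina1e, Serpina6, Serpinc1, Serpind1, Serpinf1, Serpinf2, Serping1 and Serpinh1. A gene and a sequence that this rule names are not reported here, and the gene is kept in the counts. Peaks described were the 3 of highest −log10 p per list and the strongest promoter peak of each such gene. Other distal sites, the change of place and the comparison of Serpina1 copies were chosen after their values were seen. Python 3.11.15, pandas 2.3.3, NumPy 2.4.6, SciPy 1.17.1, Biopython 1.88, pysam 0.24.0, SAMtools 1.23.1 and matplotlib 3.10.9 were used.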

Additional observations from a re-analysis of the deposited data

How the results depend on the processing

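Of 168 recomputed values, 135 moved by less than 1.5 times or stayed within their interval, and 33 moved further. The 135 include counts of 0 that stayed at 0, as for YAP in WT livers and at 3d. Settings that only remove peaks or narrow windows could not have changed those counts. Without flanks, 0 serpins had a YAP peak at 7d, and 2, 19 and 20 had one in the TEAD lists of WT, 3d and 7d livers, with 0, 2, 37 and 35 distinct peaks. With 50 kb flanks, 5 serpins had a YAP peak at 7d (8.33%, against 10.8% of the other genes) and 14 a TEAD peak in WT livers, with 5, 17, 123 and 127 distinct peaks, and 2 had a YAP peak at 7d when each peak went to the nearest start. With the strongest 5695 TEAD peaks of each list, 12 serpins had a peak at 3d and 12 at 7d, 3 and 3 a promoter peak, and the windows held 15 and 12 peaks. The overlaps were then 57.1% (WT with 7d), 66.7% (3d with 7d), 33.3% (7d with WT) and 8.33% (TEAD with YAP at 7d). At 5-fold enrichment or more, 46 peaks were left at 3d and 56.2% of those at 7d overlapped one at 3d. With summits at most 100 bp apart, 64.6% of 3d peaks matched 7d and 62.2% of 7d peaks matched 3d. Within 50 bp of summits, GGAATG was in 20.3% of peaks at 3d and 31.7% at 7d, and TGANTCA in 2.44% at 7d and 0 in WT livers.

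The share of serpins with a TEAD peak within 10 kb was below that of other genes under 8 of 8 settings in WT livers and 7 of 9 at 3d and at 7d. The exceptions were the strongest peaks and genes of any biotype. The latter setting also widened the comparison to other genes of any biotype, whose share was lower than that of the protein-coding ones. It gave 46.3% of 67 serpin loci against 46.3% at 3d, and 49.3% against 47.4% at 7d. For promoters the share of serpins was below under 8 of 8, 8 of 9 and 5 of 9. No paired analysis was possible because the samples of each group were merged before peaks were called, and leaving out single samples was not run for the same reason. Depth, fragment length and the fixation differ between lists, and their part in the differences was not tested.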
